A study of Rattus norvegicus with 6 samples.

Results

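The 9 genes described here are the estrogen receptors Esr1 and Esr2, the glucocorticoid receptor Nr3c1, the glucocorticoid-responsive genes Fkbp5, Tsc22d3, Zbtb16, Klf9 and Sgk1, and the cortisone-reducing enzyme Hsd11b1. They were taken from the deposited table as every row that carries one of these symbols, which gave 10 rows of 22062, or 9 genes of 21797 by symbol. RNA was sequenced from rat bone marrow-derived stem cells (BMSCs) treated with ginsenoside Rb1, a saponin of ginseng, in 3 libraries, and from BMSCs given the solvent DMSO in 3 libraries. The cells came from the marrow of rats aged 4 weeks, were used at passages 2 to 3 and were exposed to Rb1 at 20 µM over 24 h. The sample labels give the sex as female, whereas the methods describe male rats. Neither source states that replicate libraries were grown from different animals or dishes, so the p-values below reflect library-to-library spread, possibly technical in origin. No genetic change, serum steroid level or added glucocorticoid is given by the labels for either group.

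Steroid receptors are transcription factors that lie idle until a hormone binds them. Before binding, the glucocorticoid receptor is held in the cytoplasm by the HSP90 chaperone with its partner proteins. Once bound it enters the nucleus, where it raises genes that act as feedback inhibitors and anti-inflammatory mediators and lowers many cytokine genes. In bone marrow stromal cells glucocorticoids are known to influence the choice between osteoblast and adipocyte fates, and estrogen receptors are known for their part in the maintenance of bone.

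The libraries held 8197157, 12615734 and 14177062 fragments on genes with Rb1, and 10162559, 10777891 and 12337327 with DMSO. Mitochondrially encoded genes took 18.1% to 24.8% of the FPKM (fragments scaled to the length of the transcript and the depth of the library) in Rb1 libraries and 10.2% to 18.5% in DMSO libraries. Rb1 replicate 1 had the lowest mean correlation with the libraries of its own group, at 0.972 against 0.980 to 0.984 for the rest. Marker genes of mesenchymal stromal cells (8 of 10 were in the table) summed to 6075 to 7830 FPKM with Rb1. With DMSO they summed to 9055 to 10034 FPKM. The collagen genes Col1a1 (1976 to 3829 and 4218 to 4953 FPKM) and Col3a1 (2944 to 3264 and 3549 to 3937 FPKM) made up most of this sum. Both were lower in every Rb1 library, as were Pdgfrb, Eng and Cxcl12, whereas Thy1, Nt5e and Prrx1 overlapped between groups. Macrophage markers (10 of 10) summed to 4639 to 4980 FPKM with Rb1 and to 4220 to 4402 FPKM with DMSO, most of it from the lysozyme gene Lyz2 at 3304 to 3729 and 2835 to 2885 FPKM. Without Lyz2 the other 9 macrophage markers summed to 1251 to 1366 FPKM with Rb1 and to 1369 to 1517 FPKM with DMSO. Of these, the receptor gene Csf1r (23.5 to 27.7 and 28.9 to 33.0 FPKM) and the complement gene C1qa (144 to 181 and 189 to 209 FPKM) were lower in every Rb1 library. Cd68, Ptprc, Cd14, Adgre1, C1qb, Tyrobp and Fcer1g overlapped between groups. Adipocyte markers (7 of 7) summed to 667 to 833 FPKM with Rb1 and to 562 to 674 FPKM with DMSO, endothelial markers (5 of 6) to 21.3 to 23.3 and 32.0 to 49.4 FPKM, and osteoblast markers (5 of 5) to 13.0 to 17.4 and 11.1 to 15.4 FPKM. Lpl (458 to 578 FPKM with Rb1, 398 to 509 FPKM with DMSO) made up most of the adipocyte sum. Next came Fabp4 (188 to 235 and 139 to 154 FPKM), higher in every Rb1 library. Cebpa (14.0 to 17.1 and 19.3 to 21.9 FPKM) and Plin1 (0.455 to 0.485 and 0.728 to 0.887 FPKM) were lower in every Rb1 library. Adipoq, Pparg and Cidec overlapped between groups. Most of the osteoblast sum came from Runx2. It was higher in every Rb1 library, at 9.68 to 12.4 FPKM against 6.33 to 9.22 FPKM with DMSO. The osteoblast gene Bglap had 3 fragments in all and was at 0 in Rb1 replicate 2 and in every DMSO library. Alpl had 2.22 to 5.29 FPKM with Rb1 and 4.55 to 6.07 FPKM with DMSO. The part of these shifts in the results below was not tested, and in bulk RNA fewer cells of a type and less RNA per cell cannot be told apart.

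Of the 9 genes, 7 reached 1 FPKM in at least 3 of the 6 libraries and were tested, and 6 of these reached it in all 6 libraries. Differences are given as Rb1 minus DMSO on the scale of log2(FPKM + 1), which understates changes of low genes. None of the 7 passed an adjusted p of 0.05 (limma with Benjamini-Hochberg adjustment), a threshold that 0.0186% of the 10781 genes tested passed. At an unadjusted p under 0.05 from limma, 1 was higher with Rb1 (Sgk1), where 8.27% of all genes were, and 1 was lower (Zbtb16), where 14.6% were. The 3 Rb1 libraries lay wholly above the 3 DMSO libraries for 1 gene (Sgk1), against 11.9% of all genes. They lay wholly below them for 2 genes (Fkbp5 and Zbtb16), against 20.3%. Zbtb16 reached 1 FPKM only in its DMSO libraries, so it entered both lower counts only through the group where it was higher. By value 3 of the 7 were higher and 4 were lower, beside 4418 higher and 6363 lower among all genes tested, whose median difference was -0.07. The split of all genes at an unadjusted p under 0.05 was 892 higher and 1575 lower with FPKM as deposited, 1279 and 1158 after quantile normalization, and 1346 and 1017 with libraries scaled to the same median.

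**Figure D1:**
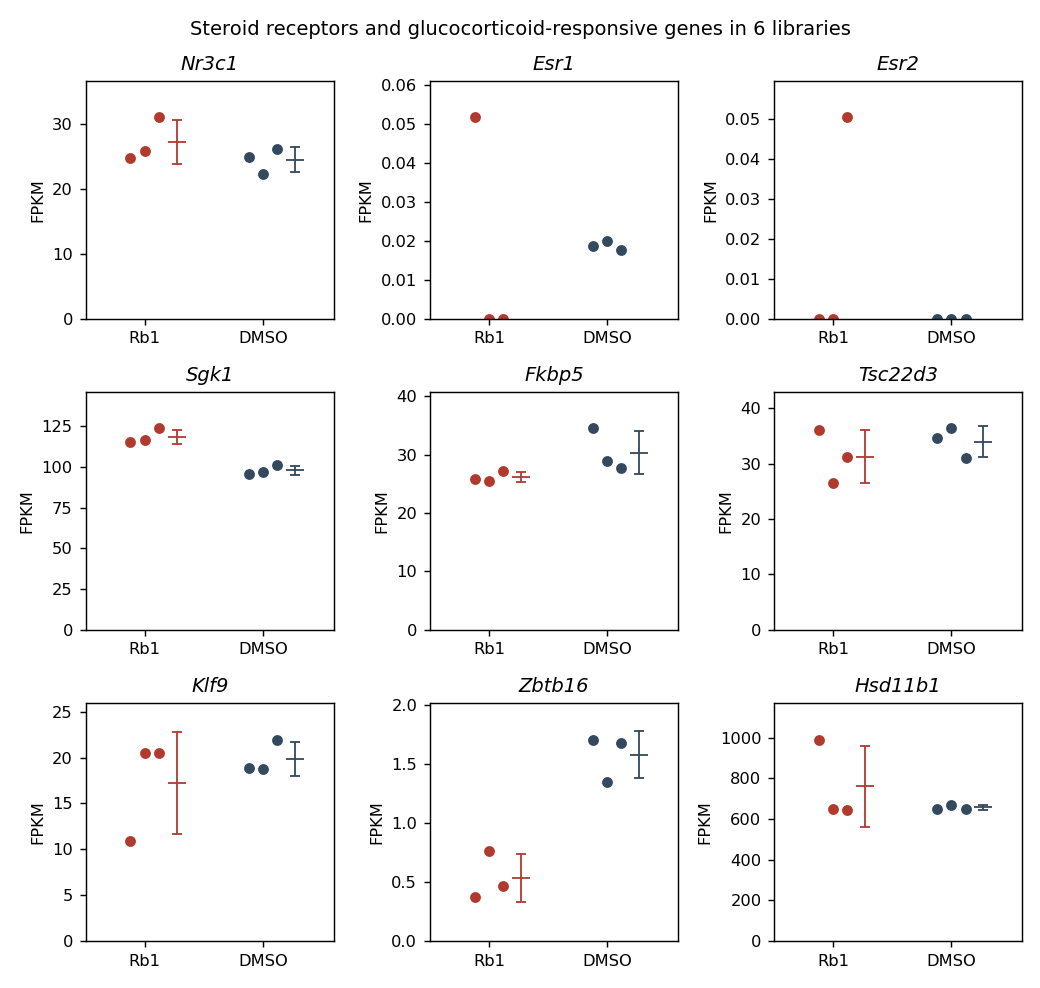
FPKM of the 9 genes by library, with an axis of its own for each gene; points are libraries (Rb1 left, DMSO right) and the mark beside them is the mean with its SD (n = 3), left out for the untested Esr1 and Esr2. Sgk1 lay between 115 and 124 FPKM with Rb1 and between 95.4 and 101 FPKM with DMSO, whereas Hsd11b1 and Klf9 each had 1 Rb1 library apart from the rest.

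The estrogen receptors were at the limit of detection. Esr1 (ENSRNOG00000019358, estrogen receptor alpha, on chromosome 1 from 41192823 to 41594799 as the table gives it) had 0.0517, 4.35e-09 and 1.87e-09 FPKM with Rb1, and 0.0187, 0.0198 and 0.0175 FPKM with DMSO. The deposited estimates behind these values correspond to 2.24 fragments in Rb1 replicate 1 and to no more than 1.14 fragments in any other library, so no difference was detectable at this depth. Esr2 (ENSRNOG00000005343, estrogen receptor beta, on chromosome 6 from 99164356 to 99214251) had 1 fragment, in Rb1 replicate 3, and 0 fragments in the other 5 libraries. A count of 0 allows up to 3 fragments, which is 0.238 and 0.366 CPM (fragments per 1000000 fragments of the library) in the Rb1 libraries without a fragment and 0.243 to 0.295 CPM in the DMSO libraries. These limits cover counting error only. Several other steroid receptors and their relatives were also too low to be tested. Nr3c2, the mineralocorticoid receptor, had 5 fragments over all 6 libraries, and the membrane estrogen receptor Gper1 had 10. Pgr, the progesterone receptor, which is itself an estrogen target, had 31 fragments and did not exceed 0.386 FPKM. Of the estrogen-related receptors, which resemble estrogen receptors but bind no estrogen, Esrrb had 0 fragments and Esrrg had 15. Esrra was the only relative besides Nr3c1 that was tested. It had 13.8, 18.6 and 16.2 FPKM with Rb1 and 25.03, 25.07 and 20.9 FPKM with DMSO, so that all Rb1 libraries were below all DMSO libraries, with a difference of -0.52 (SE 0.15, adjusted p = 0.126, limma with Benjamini-Hochberg adjustment).

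Nr3c1 was the steroid receptor with the highest level in these cells, and its reads were reported in 2 rows. Summed, Nr3c1 had 24.8, 25.9 and 31.1 FPKM with Rb1 and 24.9, 22.4 and 26.2 FPKM with DMSO (27.3 ± 3.33 and 24.5 ± 1.95, SD, n = 3 each). In FPKM the groups overlapped, and only Rb1 replicate 3 stood above every DMSO library. Counted in fragments they did not overlap, with 122, 118 and 134 CPM with Rb1 and 105, 94.7 and 109 CPM with DMSO. The difference on log2(FPKM + 1) was 0.15, with a 95% confidence interval of -0.16 to 0.45 and an adjusted p of 0.528 (limma with Benjamini-Hochberg adjustment). It was 0.05 without Rb1 replicate 3 and 0.08 without DMSO replicate 2, 0.27 with array weights (adjusted p = 0.159, limma) and 0.28 with voom (adjusted p = 0.192), and in these last settings the unadjusted p was 0.0444 and 0.0365.

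The rows differed in sign. Row ENSRNOG00000014096, on the minus strand of chromosome 18 from 31728372 to 31749647, had 22.9, 21.8 and 24.2 FPKM with Rb1 and 18.8, 16.9 and 19.4 FPKM with DMSO. Every Rb1 library was above every DMSO library in this row, with a difference of 0.31 (95% confidence interval 0.04 to 0.57, adjusted p = 0.178 over the 10814 rows tested apart, limma with Benjamini-Hochberg adjustment). Row ENSRNOG00000048800, from 32669426 to 32670665 on the same chromosome, had 1.90, 4.13 and 6.81 FPKM with Rb1 and 6.08, 5.46 and 6.76 FPKM with DMSO. Here the Rb1 libraries spread widely and overlapped the DMSO libraries, with a difference of -0.54 (95% confidence interval -1.30 to 0.23, adjusted p = 0.354, limma with Benjamini-Hochberg adjustment). This locus spans 1239 bases, lies 919779 bases from the other row and gave 7.65% to 25.8% of the summed FPKM. It held 18, 59 and 108 fragments with Rb1 and 69, 67 and 94 with DMSO. The other row held 986 to 1790 fragments with Rb1 and 954 to 1252 with DMSO. The sources used here do not say how fragments were shared between rows of the same symbol, so the values of both rows are uncertain.

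**Figure D2:**
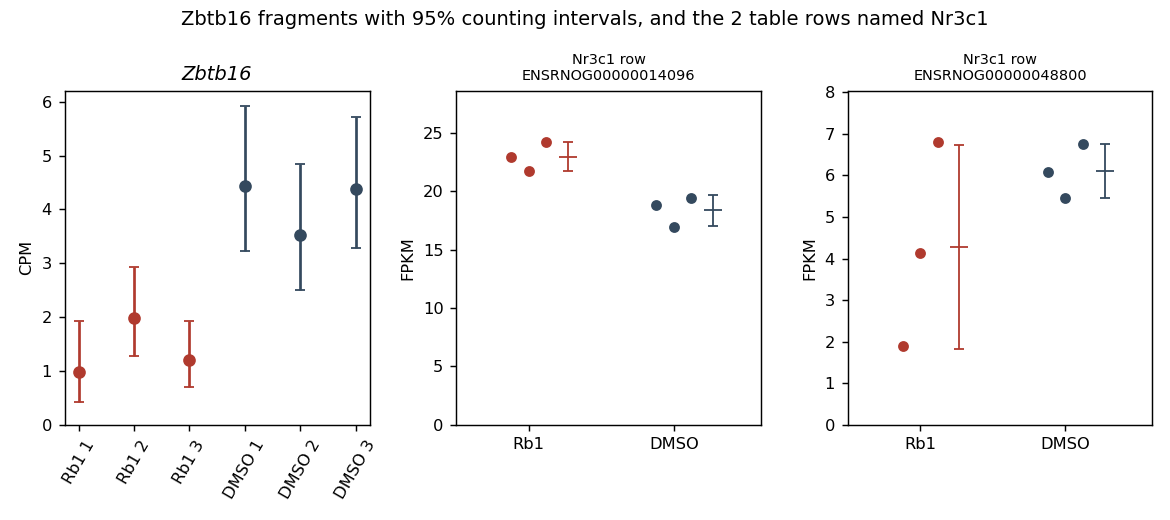
Left, Zbtb16 CPM in each library with the exact Poisson 95% interval, which covers counting error only; middle and right, FPKM of the 2 rows named Nr3c1, with points for libraries and a mark for the mean and SD (n = 3). Zbtb16 lay between 0.976 and 1.98 CPM with Rb1 and between 3.53 and 4.43 CPM with DMSO, and the Nr3c1 rows went opposite ways by value.

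The 3 tested genes whose log2(FPKM + 1) followed Nr3c1 most closely over the 6 libraries, among 10780, were Atp2c1, a calcium and manganese pump of the Golgi (Pearson r = 0.991), G3bp2, a stress granule protein (r = 0.989), and Phf3 (r = 0.988). These correlations are a description over 3 Rb1 and 3 DMSO libraries of unequal depth, and the difference of each gene between groups was 0.12.

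Among the glucocorticoid-responsive genes, Zbtb16 and Sgk1 showed the clearest separation between groups, in opposite directions. Zbtb16 (ENSRNOG00000029980, on chromosome 8 from 52985312 to 53146953) encodes PLZF, a zinc finger repressor induced by glucocorticoids in many cell types. It had 0.371, 0.760 and 0.462 FPKM with Rb1 and 1.71, 1.35 and 1.68 FPKM with DMSO (0.531 ± 0.203 and 1.58 ± 0.200, SD, n = 3 each). All 3 Rb1 libraries were below all 3 DMSO libraries, and the Rb1 mean was 0.336 times the DMSO mean. The difference was -0.76 on log2(FPKM + 1), with a 95% confidence interval of -1.08 to -0.44 and an adjusted p of 0.117 (limma with Benjamini-Hochberg adjustment). The exact permutation test gave p = 0.1, the smallest it can give with 3 libraries in each group.

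The gene was scarce. Its values rest on 8, 25 and 17 fragments with Rb1 and on 45, 38 and 54 fragments with DMSO. The highest Rb1 library had 1.98 CPM (exact Poisson 95% interval 1.28 to 2.93) and the lowest DMSO library had 3.53 CPM (2.50 to 4.84), so that the counting intervals of these neighbouring libraries overlapped. Zbtb16 passed the minimum of 1 FPKM only through its DMSO libraries. The size of its difference depended on the scale, at -1.45 with a pseudocount of 0.1 (adjusted p = 0.133) and -1.56 in limma-voom on recovered fragments (adjusted p = 0.0890, both with Benjamini-Hochberg adjustment). With libraries weighted by their quality in limma, the difference was -0.74 with an adjusted p of 0.0319 (Benjamini-Hochberg), a fit in which 800 genes passed.

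Sgk1 (ENSRNOG00000011815, on chromosome 1 from 24185434 to 24302298) encodes a serum- and glucocorticoid-regulated kinase that acts on ion channels and transporters. It had 115, 116 and 124 FPKM with Rb1 and 95.4, 97.1 and 101 FPKM with DMSO (118 ± 4.55 and 97.8 ± 2.93, SD, n = 3 each). Every Rb1 library was above every DMSO library, and the ratio of the means was 1.21. The difference was 0.27, with a 95% confidence interval of 0.03 to 0.52 and an adjusted p of 0.184 (limma with Benjamini-Hochberg adjustment), and the exact permutation test gave p = 0.1. The unadjusted p stayed under 0.05 in 11 of 18 alternative fits, and the difference lay between 0.24 and 0.36 over the 18. Without Rb1 replicate 2 or 3, or without any of the DMSO libraries, the unadjusted p was no longer under 0.05, nor was it with a replicate block or with scaling without mitochondrially encoded genes.

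Fkbp5 (ENSRNOG00000022523, on chromosome 20 from 7976712 to 8019020) encodes FKBP51, an HSP90 partner that lowers the hormone affinity of the glucocorticoid receptor and is itself induced by it. It had 25.8, 25.4 and 27.2 FPKM with Rb1 and 34.5, 28.9 and 27.7 FPKM with DMSO (26.1 ± 0.913 and 30.3 ± 3.64, SD, n = 3 each). The Rb1 libraries lay close together just below the DMSO libraries, of which replicate 1 was well above the others. The difference was -0.20, with a 95% confidence interval of -0.49 to 0.09 and an adjusted p of 0.354 (limma with Benjamini-Hochberg adjustment). Without DMSO replicate 1 it was -0.11 (adjusted p = 0.714, limma with Benjamini-Hochberg adjustment).

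Sequence just upstream of a start site is shown for Sgk1 and Fkbp5, the members whose groups did not overlap and for which the RefSeq promoter table (assembly GRCr8) holds a window. Both stretches run 5′ to 3′ along the gene over the 130 bases before the start, and capitals mark the GC box GGGCGG or its reverse complement, the binding motif of SP1-type factors. The Sgk1 stretch is chr1:24804832-24804961 and the Fkbp5 stretch is chr20:6543556-6543685, both on the minus strand, in an assembly whose positions are not those of the deposited table.
Sgk1: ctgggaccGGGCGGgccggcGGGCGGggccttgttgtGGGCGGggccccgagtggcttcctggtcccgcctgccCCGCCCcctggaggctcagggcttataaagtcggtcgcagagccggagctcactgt
Fkbp5: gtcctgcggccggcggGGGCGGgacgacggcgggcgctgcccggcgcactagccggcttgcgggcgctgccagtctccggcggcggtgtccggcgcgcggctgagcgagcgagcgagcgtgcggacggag
The Sgk1 stretch holds 4 GC boxes and the Fkbp5 stretch holds 1, but each full window holds 4. Sgk1 has 3 windows, with 4, 2 and 0 GC boxes, and the one shown is the most downstream, which is also the richest. On either strand, over 300 bases around each start, the GC box was found in 7 of the 12 windows of the 7 members in the table, against 33.1% of all 33469 windows. These 7 windows belonged to 4 genes, as some members have more than 1 window. The hexamer TGTTCT, part of the glucocorticoid receptor element, was in 0 of the 12 windows and in 20.7% of all windows, and the estrogen receptor hexamer AGGTCA was in 0 of 12 and in 16.2%. The spaced palindrome ACANNNTGT was in 1 window, of Tsc22d3, and in 6.86% of all windows. A window without a match says only that these letters are not in it.

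The remaining glucocorticoid-responsive genes overlapped between groups. Tsc22d3 (ENSRNOG00000056135, on chromosome X from 111884294 to 111887906) encodes GILZ, a leucine zipper protein that restrains inflammatory transcription factors. It had 36.0, 26.5 and 31.2 FPKM with Rb1 and 34.6, 36.4 and 30.9 FPKM with DMSO. The lowest value was Rb1 replicate 2 and the highest was DMSO replicate 2, and the difference was -0.12 (95% confidence interval -0.46 to 0.21, adjusted p = 0.625, limma with Benjamini-Hochberg adjustment). It was -0.014 without Rb1 replicate 2 and -0.23 without Rb1 replicate 1.

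Klf9 (ENSRNOG00000014215, on chromosome 1 from 240908482 to 240933198) encodes a Krüppel-like factor induced by glucocorticoids and thyroid hormone. It had 10.8, 20.5 and 20.4 FPKM with Rb1 and 18.8, 18.8 and 21.96 FPKM with DMSO. Rb1 replicate 1 was well below the other 5 libraries, which lay close together. The difference of -0.24 (95% confidence interval -0.80 to 0.32, adjusted p = 0.566, limma with Benjamini-Hochberg adjustment) was 0.04 without that library.

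Hsd11b1 was the most abundant of the 9 genes. Hsd11b1 (ENSRNOG00000005861, on chromosome 13 from 111926441 to 111972603) encodes the enzyme that regenerates active glucocorticoid inside cells, corticosterone in the rat, from its inactive 11-keto form. It had 992, 650 and 644 FPKM with Rb1 and 651, 672 and 648 FPKM with DMSO. Rb1 replicate 1, which was lowest for Klf9, was far above the other 5 libraries, and the other Rb1 libraries lay at the lower end of the DMSO range or next to it. The difference was 0.18, with a 95% confidence interval of -0.24 to 0.61 and an adjusted p of 0.566 (limma with Benjamini-Hochberg adjustment), and it was -0.02 without Rb1 replicate 1.

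**Figure D3:**
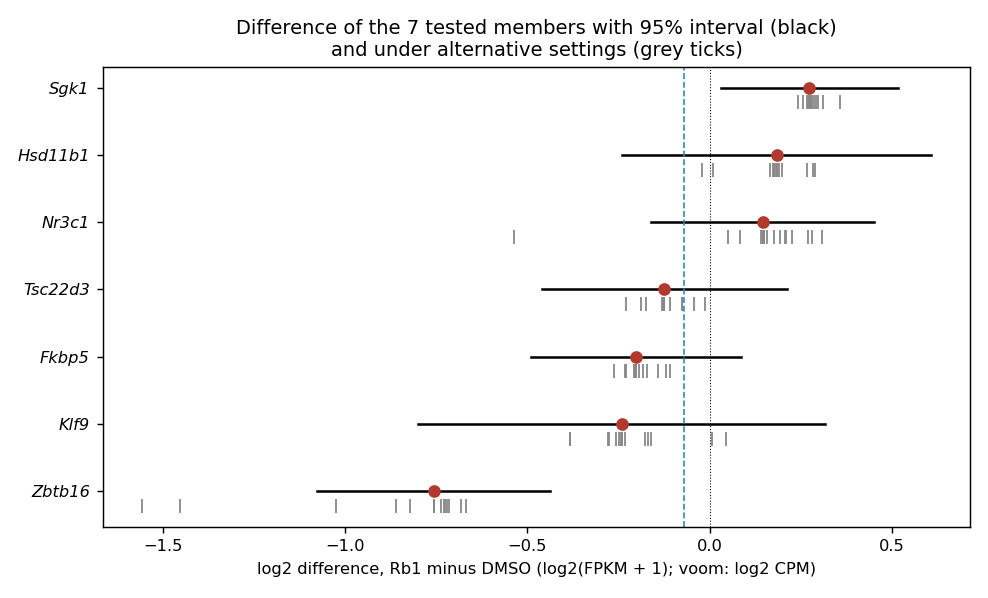
Difference between Rb1 and DMSO for the 7 tested genes on log2(FPKM + 1), with its 95% confidence interval from limma; grey ticks are the values under the alternative fits and the dashed line is the median of all genes tested, -0.07. The interval of Sgk1 (0.03 to 0.52) lay above 0 and that of Zbtb16 (-1.08 to -0.44) below it. Zbtb16 passed the filter on low values only through its DMSO libraries. The ticks of Nr3c1, Klf9 and Hsd11b1 fell on both sides of 0.

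FPKM is given per length, so levels can be set between genes. With Rb1, Hsd11b1 came first, then Sgk1, then Tsc22d3, Nr3c1 and Fkbp5, whose ranges over libraries overlapped, then Klf9, Zbtb16 and the estrogen receptors. With DMSO the order was Hsd11b1, Sgk1, Tsc22d3 and Fkbp5 with overlapping ranges, Nr3c1, Klf9, Zbtb16 and the estrogen receptors. The place of Nr3c1 rests on the sum of its 2 rows. Row ENSRNOG00000014096 alone averaged 18.4 FPKM with DMSO, below Klf9 at 19.9 FPKM, with overlapping ranges. With Rb1 that row had 21.8 to 24.2 FPKM, below Fkbp5 at 25.4 to 27.2 FPKM. By mean level over the 6 libraries, Hsd11b1 was above 98.6% of the genes tested, Sgk1 above 91.5%, Nr3c1 above 71.2% and Zbtb16 above 1.46%.

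The other genes of the pathway are described from lists by role, none of which held a gene that passed an adjusted p of 0.05 (limma with Benjamini-Hochberg adjustment). Of the 13 receptor chaperones tested, 7 had higher and 6 had lower Rb1 means, and the median difference was 0.03. The unadjusted p was under 0.05 (limma) for 3, all of them higher, where 8.27% of all genes tested were higher and 14.6% lower. The higher count was 1 without DMSO replicate 1, without DMSO replicate 2 or with a replicate block. Without Rb1 replicate 1 or with array weights, 1 chaperone was lower at this threshold. Ppid, the HSP90-binding cyclophilin 40, averaged 46.6 ± 7.13 FPKM with Rb1 and 28.8 ± 2.97 FPKM with DMSO, with a difference of 0.67 (adjusted p = 0.117, limma with Benjamini-Hochberg adjustment). The others were Ptges3, the p23 cochaperone, at 0.48, and Dnaja1, an HSP40 protein, at 0.34, while Stip1, which links HSP70 to HSP90, had 0.22 and missed that threshold. Of 13 coregulators tested, 3 had positive and 10 had negative differences, and the median was -0.12. That median was -0.38 without Rb1 replicate 3, -0.04 without DMSO replicate 3 and -0.02 after quantile normalization, where 5 were positive and 8 negative. The chromatin remodeller Smarca4 averaged 14.6 ± 2.16 FPKM with Rb1 and 18.5 ± 1.23 FPKM with DMSO, a difference of -0.32 (adjusted p = 0.214, limma with Benjamini-Hochberg adjustment). The coactivators Pelp1 at -0.40 and Ncoa3 at -0.36 did not reach an unadjusted p of 0.05.

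Of 12 enzymes of steroid metabolism tested, 6 had positive and 6 had negative differences, and the median was 0.03, whose sign turned in 3 of 17 alternative fits. H6pd, which supplies Hsd11b1 with its cofactor NADPH in the endoplasmic reticulum, averaged 3.32 ± 0.468 FPKM with Rb1 and 4.73 ± 0.618 FPKM with DMSO. Its difference was -0.41 (adjusted p = 0.158, limma with Benjamini-Hochberg adjustment), and no Rb1 library reached the level of a DMSO library. Srd5a3, which despite its name serves dolichol synthesis, had -0.34, the steroid sulfatase Sts had -0.40 and Hsd3b7, of bile acid synthesis, had -0.25. Hsd11b2, which inactivates glucocorticoids, was not tested, with 0 to 0.0922 FPKM with Rb1, 0.189 to 0.281 FPKM with DMSO and 17 fragments in all. The aromatase gene Cyp19a1, which makes estrogen from androgen, was at 0 in all 6 libraries.

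Of 22 other glucocorticoid-induced genes tested, 8 had positive and 14 had negative differences, and the median was -0.20, against -0.07 for all genes. The unadjusted p was under 0.05 (limma) for 7, of which 6 were lower and 1, the sulfotransferase Sult1a1, was higher (0.34). Among all genes tested, 14.6% were lower and 8.27% higher at this threshold. The lower count was 4 without Rb1 replicate 3, DMSO replicate 1 or DMSO replicate 2 and with libraries scaled to the same median. It was 7 without Rb1 replicate 2, with array weights or with no filter on low values. Among the lower genes Klf15, a metabolic transcription factor, averaged 9.78 ± 0.405 FPKM with Rb1 and 13.8 ± 1.42 FPKM with DMSO. The metallothionein Mt2A averaged 1805 ± 32.3 FPKM with Rb1 and 2795 ± 560.2 FPKM with DMSO, Angptl4, an inhibitor of lipoprotein lipase, 22.3 ± 4.07 and 34.7 ± 4.36 FPKM, and Ddit4, an inhibitor of mTORC1, 57.4 ± 5.85 and 78.9 ± 7.50 FPKM. Their differences were -0.45 for Klf15, -0.61 for Mt2A, -0.62 for Angptl4 and -0.45 for Ddit4, with adjusted p of 0.121 for the first 3 and 0.132 for Ddit4 (limma with Benjamini-Hochberg adjustment). In each of these 4 genes the Rb1 libraries were all below the DMSO libraries. This held for 8 of the 22 genes of the list and for 20.3% of all genes tested. The list's median stayed between -0.25 and -0.08 over 17 alternative fits. Without Rb1 replicate 1 it was -0.088, close to the -0.064 of all genes, and with array weights it was -0.084 against -0.051.

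Of 10 glucocorticoid-repressed genes tested, 8 had positive and 2 had negative differences, and the median was 0.40. The unadjusted p was under 0.05 (limma) for 4, all of them higher, where 8.27% of all genes tested were higher and 14.6% lower. The chemokine Ccl2 had 1407, 1411 and 1252 FPKM with Rb1 and 857.7, 794.6 and 794.9 FPKM with DMSO. The cytokine Il6 had 5.53, 8.57 and 7.42 FPKM with Rb1 and 4.11, 2.69 and 3.70 FPKM with DMSO. In both genes every Rb1 library was above every DMSO library, with differences of 0.73 and 0.86. The Rb1 libraries lay wholly above for 5 of the 10 genes and wholly below for 1, against 11.9% and 20.3% of all genes tested. The chemokine Cxcl1 had a difference of 0.63 and the collagenase Mmp13 one of 0.53, and the adjusted p was 0.117 for Ccl2, Il6 and Cxcl1 and 0.118 for Mmp13 (limma with Benjamini-Hochberg adjustment). The list's median stayed between 0.15 (no filter on low values) and 0.57 over 17 alternative fits. It was 0.21 without Rb1 replicate 1 and 0.22 with array weights. Whether the glucocorticoid receptor had a part in these differences was not tested. The macrophage marker sum was higher in every Rb1 library with Lyz2. Without it the sum was lower in every Rb1 library, but the ranges nearly met (1366 FPKM with Rb1 and 1369 FPKM with DMSO). The stromal marker sum, most of it from Col1a1 and Col3a1, was lower in every Rb1 library. The part of these sums in the values above was not tested.

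Of 10 estrogen-responsive genes tested, 3 had positive and 7 had negative differences, and the median was -0.18. The unadjusted p was under 0.05 (limma) for 5, of which 4 were lower, where 14.6% of all genes tested were lower and 8.27% higher. The lower count was 2 without Rb1 replicate 2, without any of the DMSO libraries or with libraries scaled to the same median. It was 3 with a replicate block, and the list's median was -0.02 with no filter on low values. Igfbp4, which binds insulin-like growth factors, averaged 260.0 ± 28.4 FPKM with Rb1 and 373.0 ± 7.71 FPKM with DMSO, a difference of -0.52 (adjusted p = 0.118, limma with Benjamini-Hochberg adjustment). The retinoic acid receptor Rara had -0.54 and the lysosomal protease Ctsd -0.31, while the keratin Krt19 had 0.42 at 1.51 ± 0.286 FPKM with Rb1 and 0.877 ± 0.172 FPKM with DMSO. Krt19 passed the minimum of 1 FPKM through its Rb1 libraries, as in DMSO only replicate 3 reached it (1.08 FPKM). Most genes of this list answer to many other signals, and the estrogen targets Tff1 and Pgr were at 0 or not tested for low values.

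**Figure D4:**
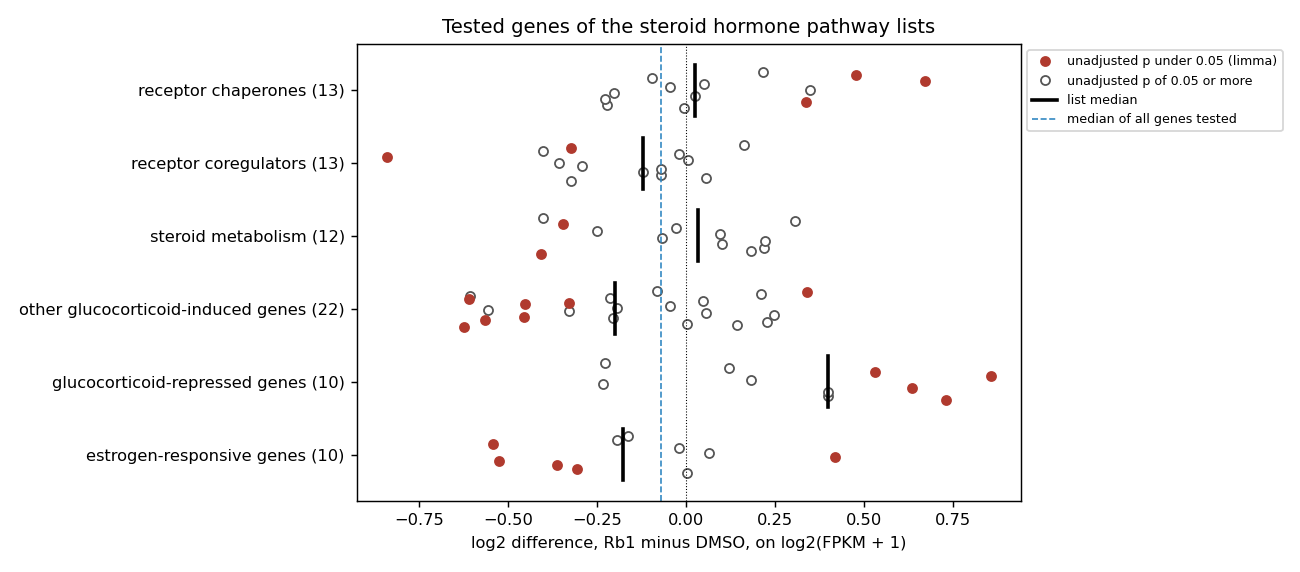
Difference between Rb1 and DMSO of each tested gene by list, on log2(FPKM + 1); filled points had an unadjusted p under 0.05 (limma), black bars are list medians and the dashed line is the median of all genes tested, -0.07. The medians of the glucocorticoid-induced and glucocorticoid-repressed lists were -0.20 and 0.40.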

How the data were processed

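RNA from 6 rat BMSC libraries (3 Rb1, 3 DMSO) was sequenced. The submitters' processing notes name CASAVA 1.8, HISAT2 and hg19, a human build that is not the rat annotation of the table, so the build of its coordinates and the counting program are not given in the sources used here. FPKM per gene was computed by the authors. The deposited count columns hold a signal, fragments times a factor per library, from which fragments were recovered by division (98.7% to 99.4% of values came out whole within 0.05).

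Groups were taken from the labels. Rows with the same symbol (233 symbols) were summed, 18 rows had no symbol, and genes at 1 FPKM or more in 3 or more libraries entered a fit with limma 3.58.1 in R 4.3.3 (lmFit and eBayes) on log2(FPKM + 1), group only, with Benjamini-Hochberg adjustment over all genes tested. For members, an exact permutation test (two-sided) over 20 splits was added, whose smallest p is 0.1. The paper states no test for these data. The procedure was tested on simulated data. Alternatives were another pseudocount, filter, scaling, variance model, a replicate block and leaving out each library. The genes named are the members, up to 4 tested genes with the smallest p in each list, the other steroid receptors and the 3 genes most like Nr3c1, except 2 genes that are not reported here. Members and lists were chosen with earlier results of these data known. Promoter sequences are from RefSeq (GRCr8), which held 7 of the 9 members, not Zbtb16 or Hsd11b1.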

Additional observations from a re-analysis of the deposited data

How the results depend on the processing

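With FPKM as deposited, 2 genes passed an adjusted p of 0.05 and 2467 an unadjusted p under 0.05 (limma). The first count was 0 with a replicate block (2082 at an unadjusted p under 0.05), 1 with libraries scaled to the same median, 800 with array weights and, in settings chosen after seeing the data, 0 with voom on recovered fragments (2426 at an unadjusted p under 0.05) and 1 after scaling without mitochondrially encoded genes. Leaving out each library in turn gave 0 to 6 for the adjusted count (6 without Rb1 replicate 1) and 1463 to 2554 for the unadjusted count (1463 without DMSO replicate 1, 1642 without DMSO replicate 2). The difference of Klf9 turned to 0.0067 with array weights and lay between -0.38 and 0.044 when each library was left out (0.044 without Rb1 replicate 1), and that of Hsd11b1 lay between -0.021 (without Rb1 replicate 1) and 0.29. Kept apart, the Nr3c1 row ENSRNOG00000048800 had -0.54. Zbtb16 passed the adjusted threshold only with array weights, at -0.74. The causes were not tested. The same-numbered libraries did not pair (correlations of deviations -0.0038, -0.04 and 0.16), and under the block the adjusted p of Zbtb16 was 0.221 (limma with Benjamini-Hochberg adjustment). The planned quasi-likelihood count test was not run because the recovered values were not all whole. Depth limits Esr1, Esr2 and Zbtb16, and 3 libraries a group limit every comparison.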
